A study of Penicillium oxalicum with 9 samples.

Results

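The 47 genes described here were abundant on average over the 3 strains of a Penicillium oxalicum series and had strain means close to each other. They were selected on measured values: 500 FPKM or more on average across the 9 libraries, and a highest strain mean at most 25% above the lowest. FPKM stands for fragments per kilobase of gene in proportion to the library total. Of 9860 rows in the table, 319 reached a mean of 500 FPKM, 49 of these were within 25%, and 2 (PDE_00780 and PDE_09218) fell in locus numbers left out of the choice, which leaves 47. Because strain means chose the genes, the likeness of those means is a description of the choice and is not tested. The spread between libraries of a strain did not enter the choice directly. A limit on means of 3 libraries still favours rows of small spread. Smaller spread or standard errors in members than in other rows are therefore a description too.

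Penicillium oxalicum is a filamentous fungus that secretes enzymes degrading plant polysaccharides. The libraries came from mycelium of a strain with crzA deleted, a strain called CrzA recover, in which crzA had been put back, and the wild-type strain 114-2, with 3 libraries each. All were transferred after 24 h of pre-culture at 30 °C and harvested 18 h later. Starch at 2% is the carbon source in the labels for medium and growth, whereas the source labels of the same samples name glucose. The labels do not say how many transformants stand behind a mutant strain, how crzA was returned, or whether replicates were separate cultures, so spread between libraries may be technical.

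CrzA is a transcription factor with zinc fingers. In filamentous fungi such as Aspergillus it is dephosphorylated by calcineurin, a phosphatase activated by calcium and calmodulin, and then enters the nucleus and acts on genes of calcium handling, cell wall and growth. Transcripts that are abundant and steady across strains are of practical interest in such work, since RT-qPCR measurements are expressed relative to reference genes whose level is taken as constant. None of the 47 locus numbers was matched to a gene name or a function, as the reference table covers another strain and matched 0 of 9860 locus numbers. The level of crzA itself, which would check the strain labels, was not analysed here.

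Summed FPKM lay between 973798 and 1063502 per library, and read numbers are unknown, so counting error could not be computed. Deletion replicate 2 and wild-type replicate 2 stood apart from the other libraries of their strains. Over the 9099 rows with at least 1 FPKM in at least 3 libraries, deletion replicate 2 and the mean of the other deletion libraries were at least 25% apart, the higher over the lower, at 57.0% of rows, compared with 41.1% for replicate 1 and 37.3% for replicate 3. In the recovery strain these shares were 8.13%, 8.79% and 17.2%. In the wild type they were 47.0% for replicate 2, 32.6% for replicate 1 and 20.8% for replicate 3. Results that rest on replicate 2 of the deletion strain and of the wild type are therefore given with and without both libraries, a choice made after seeing the data.

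The members covered a wide range of level. The lowest mean over the 9 libraries was 506 FPKM, the median 1299.7 FPKM and the highest 6083 FPKM, against a median of 1076 FPKM for the 251 other rows of at least 500 FPKM outside the dropped locus numbers, called other abundant rows below, and 31.0 FPKM for all 9099 rows. Of the 47, 30 reached 1000 FPKM, 8 reached 2000 FPKM and 5 reached 4000 FPKM. The best placed held rank 7 of the file by mean level, and 17 were among the first 100. Ratios of the highest to the lowest strain mean ran from 1.03 to 1.248 among the members with a median of 1.17, while the other abundant rows had a median of 1.48. The highest strain mean was that of the deletion strain at 18 members, of the recovery strain at 22 and of the wild type at 7, and the lowest was theirs at 18, 10 and 19. All 47 passed the filter on low values. Close strain means were less common among abundant rows, at 15.4% of 319, than among the 8780 rows under 500 FPKM, at 26.7%.

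**Figure D1:**
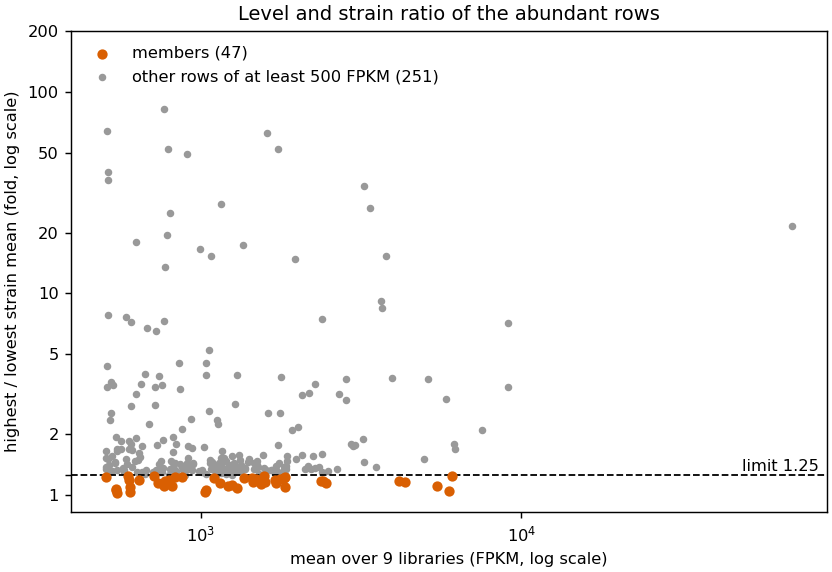
Each point is 1 row of the table with a mean of at least 500 FPKM: the x axis is the mean over 9 libraries in FPKM and the y axis the highest strain mean divided by the lowest, both on log scales. The 47 members (orange) lie at or under the dashed limit, 25% above equality, by choice, up to 6083 FPKM, and the 251 other abundant rows (grey) lie above it.

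The most abundant member, PDE_02596, stood at 5128, 7409 and 7990.0 FPKM in deletion replicates 1, 2 and 3, at 4999.8, 5536 and 6020.1 FPKM in the recovery replicates and at 5388, 7529 and 4745 FPKM in the wild-type replicates. Values of a strain are given in this order of replicates throughout. The deletion and wild-type values each spread more widely than the recovery values, and all 3 strains overlapped. PDE_09166 came next, with 6003, 4733 and 6781 FPKM in the deletion libraries, 5501, 6118 and 5956 FPKM in the recovery libraries and 7602, 4522 and 6110.1 FPKM in the wild-type libraries, and its strain ratio was 1.04. Replicate 2 was the lowest library of both the deletion strain and the wild type at this locus, while the recovery libraries stayed between 5501 and 6118 FPKM.

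At PDE_00621 there were 6224, 4643 and 6227 FPKM in the deletion libraries, 5335, 5678 and 5596 FPKM in the recovery libraries and 4191, 6709 and 4553 FPKM in the wild-type libraries. Here replicate 2 was the lowest library of the deletion strain and the highest of the wild type, and the strain ratio was 1.11. Deletion replicates 1 and 3 lay above every recovery library and wild-type replicates 1 and 3 below every one. PDE_05327 had the same order, with 4881, 3324 and 5992 FPKM in the deletion libraries, 4058, 4140.3 and 4054 FPKM in the recovery libraries and 3845, 5049 and 3640.3 FPKM in the wild-type libraries. Its replicate 2 was again the lowest deletion library and the highest wild-type library. The fifth of these abundant members, PDE_00233, had 5099, 3781 and 4892 FPKM in the deletion libraries, 3746, 4074 and 4186 FPKM in the recovery libraries and 3764, 3674 and 4265 FPKM in the wild-type libraries. Deletion replicates 1 and 3 lay above all recovery and wild-type libraries, and deletion replicate 2 lay among them.

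Together the members held 7.82% ± 0.341 of summed FPKM in the deletion strain, 7.33% ± 0.169 in the recovery strain, and the wild type had 7.18% ± 0.618 (SD, n = 3 each). Single libraries held 7.54%, 7.72% and 8.20% in deletion replicates 1, 2 and 3, 7.14%, 7.48% and 7.36% in the recovery replicates, and 6.92%, 7.89% and 6.73% in the wild-type replicates. Every deletion library lay above every recovery library. Wild-type replicate 2 lay among the deletion libraries, and wild-type replicates 1 and 3 lay below every recovery library. Without both replicates 2 the 3 strains did not overlap. The highest of the 9 was 1.22 times the lowest. The 5 most abundant members made up 31.3% to 37.4% of the members' FPKM. All rows of at least 500 FPKM held 48.1% ± 1.93, 52.7% ± 0.481 and 53.3% ± 1.79 of summed FPKM in the deletion strain, the recovery strain and the wild type. The most abundant row of the file, which is no member, held 0.514% ± 0.0829 in the deletion strain, 10.5% ± 0.180 in the recovery strain, compared with 9.03% ± 0.461 in the wild type. Without it in the total the members' shares were 7.86% ± 0.349, 8.19% ± 0.177 and 7.89% ± 0.655, so the order of the strains turned with the total used. On that total the libraries of the 3 strains overlapped. FPKM is relative to the library, and in bulk mycelium fewer cells of a kind and less RNA per cell cannot be told apart.

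Spread between libraries of a strain was smallest in the recovery strain. Members had a median SD of log2(FPKM + 1) over 3 libraries of 0.264 in the deletion strain, 0.101 in the recovery strain, with 0.297 for the wild type, which correspond to factors of 1.20, 1.07 and 1.23. In 34 of 47 members the recovery strain had the lowest SD of the 3. The other abundant rows had medians of 0.367, 0.103 and 0.327 in the same order, and all 9099 rows 0.284, 0.111 and 0.207. In the recovery strain the members thus spread about as much as other abundant rows, and in the deletion strain less. The choice favours smaller spread, so how much of that difference it made was not tested. An SD of at least 0.3 was found for 22 members in the deletion strain, 1 in the recovery strain, and likewise for 22 in the wild type. Single libraries set these medians. In the wild type the members' median was above that of all rows with all 3 libraries and below it without wild-type replicate 2, at 0.0757 for members, 0.105 for other abundant rows and 0.0965 for all rows. Without deletion replicate 2 the deletion median was 0.157 for members, 0.194 for other abundant rows and 0.143 for all rows, and without recovery replicate 3 the recovery medians were 0.0600, 0.0556 and 0.0596.

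**Figure D2:**
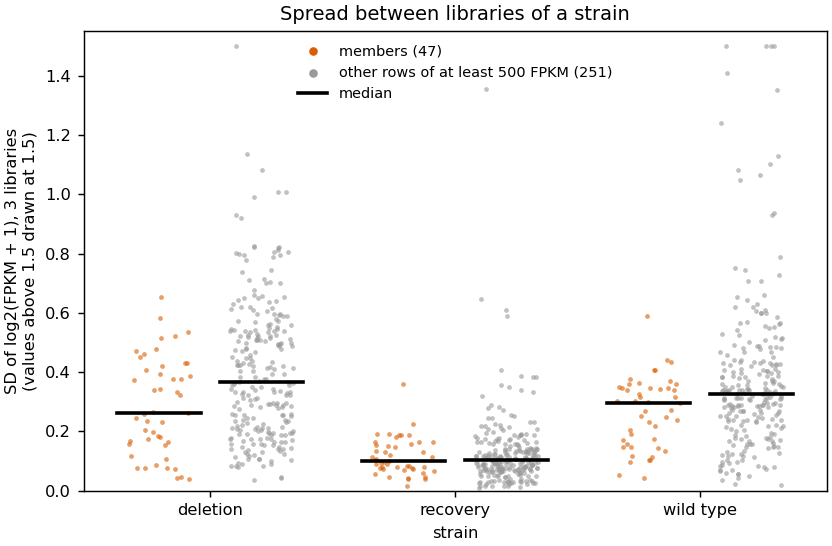
SD of log2(FPKM + 1) over the 3 libraries of a strain, 1 point per row, for the 47 members (orange) and the 251 other abundant rows (grey), with black lines at the medians. Member medians are 0.264 in the deletion strain, 0.101 in the recovery strain, against 0.297 for wild type.

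Pooled over the strains, the within-strain SD of the members ran from 0.0632 to 0.522. Its median was 0.242 against 0.336 for the other abundant rows, a difference that the choice favours. The smallest belonged to PDE_01568, which had 1587, 1642 and 1479 FPKM in the deletion libraries, 1420.2, 1538 and 1472 FPKM in the recovery libraries and 1233, 1319 and 1305 FPKM in the wild-type libraries. Its deletion and recovery libraries overlapped and all lay above its wild-type libraries, and the strain ratio was 1.22. This locus joined the tightest replicates of the set to strain means near the limit.

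PDE_05280 had the second smallest pooled SD, 0.110, and a strain ratio of 1.04. Its values were 1032, 1047 and 1088 FPKM in the deletion libraries, 954, 1012 and 1099 FPKM in the recovery libraries and 977, 1142 and 927 FPKM in the wild-type libraries. It was the only one of 47 members (2.13%) whose highest of 9 libraries was at most 25% above its lowest, at 1.23-fold. Of all 9099 rows 1.20% met that. Other abundant rows could not meet it, since their strain means were more than 25% apart. PDE_02569, with the third smallest pooled SD, was lowest on average in the recovery strain, with 1491, 1351 and 1447 FPKM in the deletion libraries, 1226, 1333 and 1516 FPKM in the recovery libraries and 1706, 1503 and 1508 FPKM in the wild-type libraries. Its recovery libraries overlapped those of both other strains, and its deletion libraries all lay below its wild-type libraries.

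At the other end was PDE_01341, which was also the member nearest the 500 FPKM floor, with 623, 281 and 479 FPKM in the deletion libraries, 485, 472 and 737 FPKM in the recovery libraries and 644, 294 and 536 FPKM in the wild-type libraries. Deletion replicate 2 and wild-type replicate 2 were both under 300 FPKM, a level reached in no other library, and the highest of 9 libraries was 2.62 times the lowest. PDE_09149, with the second largest pooled SD, had 403, 966 and 505 FPKM in the deletion libraries, 764, 747 and 829 FPKM in the recovery libraries and 633, 896 and 667 FPKM in the wild-type libraries. Without deletion replicate 2, the remaining deletion libraries at PDE_09149 lay below every recovery and wild-type library. At PDE_09361, with the third largest, values were 1028, 1973 and 1378 FPKM in the deletion libraries, 1634, 1763 and 1581 FPKM in the recovery libraries and 1308, 2031 and 1143 FPKM in the wild-type libraries. Replicate 2 was the highest library of both the deletion strain and the wild type there.

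**Figure D3:**
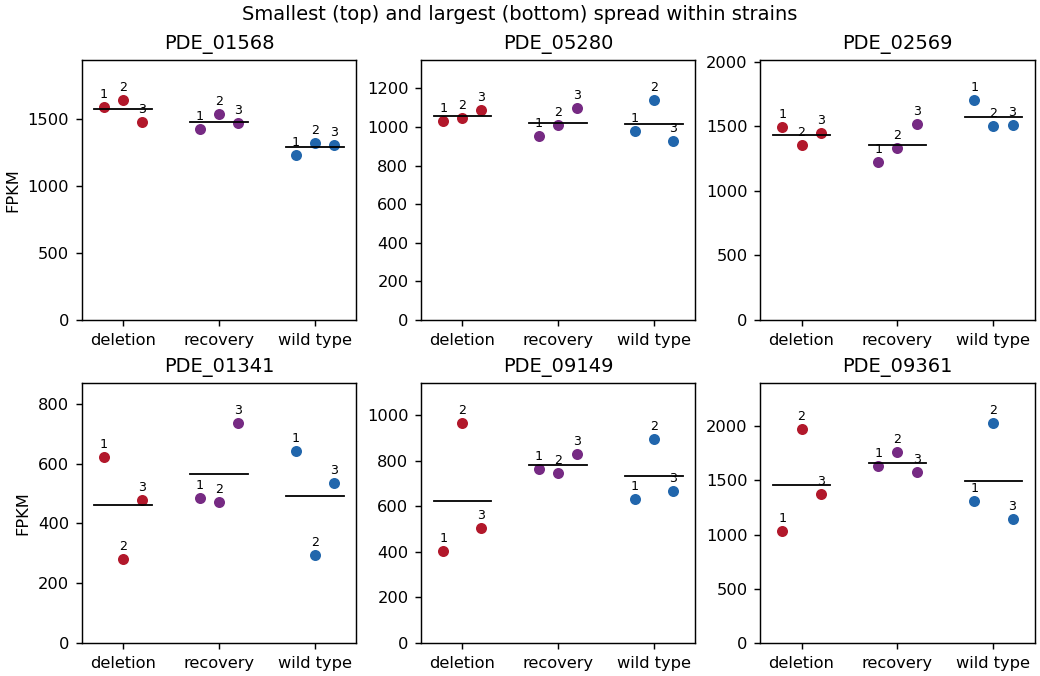
FPKM in every library for the 3 members with the smallest (top row) and the 3 with the largest (bottom row) pooled within-strain SD, with replicate numbers beside the points and lines at strain means. In the bottom row replicate 2 of the deletion strain and of the wild type lies away from the other replicates, as low as 281 FPKM at PDE_01341 and as high as 2031 FPKM at PDE_09361.

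Over all 9 libraries, the highest value was a median of 1.61 times the lowest among members and 2.48 times among other abundant rows. It was within 1.5-fold for 14 of 47 members and 1 of 251 other abundant rows, and within 2-fold for 42 members and 49 other abundant rows. The choice on strain means favours such rows, so these counts are a description. Wild-type replicate 2 was the highest of the 9 libraries at 16 members, deletion replicate 3 at 10 and deletion replicate 2 at 7. Deletion replicate 1 was the lowest at 13 members, deletion replicate 2 at 11 and wild-type replicate 1 at 10. Recovery libraries were the highest at 6 members and the lowest at 4.

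The libraries that stood apart moved in more than one direction. Deletion replicate 2 was above the mean of the other deletion libraries by at least 25% at 13 members, and that mean was above it by at least 25% at 13. Wild-type replicate 2 was above the other wild-type libraries by that margin at 23 members and below at 8. Both replicates were higher at 11 members, both lower at 5, and both within 25% at 11. At 4 members (PDE_00621, PDE_05327, PDE_09504 and PDE_09399) deletion replicate 2 was lower and wild-type replicate 2 higher, and at PDE_08159 the reverse held. At least 1 of the 2 libraries was 25% or more away from the others of its strain for 36 of 47 members, 76.6%, and for 229 of 251 other abundant rows, 91.2%.

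The 11 members with both replicates higher included PDE_02330, PDE_03780 and PDE_00629. At PDE_02330 there were 1116, 2296 and 1522 FPKM in the deletion libraries, 1992, 2047 and 1924 FPKM in the recovery libraries and 1545, 2332 and 1610.1 FPKM in the wild-type libraries. Both replicates 2 exceeded the recovery libraries, while deletion replicates 1 and 3 lay below them. PDE_03780 had 930.0, 1739.6 and 1293 FPKM in the deletion libraries, 1460.1, 1578 and 1604 FPKM in the recovery libraries and 1257, 1997 and 1342 FPKM in the wild-type libraries. PDE_00629 had 999, 1837 and 1149 FPKM in the deletion libraries, 1532, 1685 and 1519.9 FPKM in the recovery libraries and 1124, 1953 and 1335 FPKM in the wild-type libraries. At both, too, replicate 2 of the deletion strain and of the wild type exceeded the recovery libraries, and deletion replicates 1 and 3 lay below them. In all 11, the recovery strain had the highest mean of the 3 once both replicates 2 were left out, and the deletion strain had the lowest in 9. These 11 were grouped by high replicates 2, and leaving those out lowers the deletion and wild-type means but not the recovery mean. With strain means chosen as close, the grouping thus favours a highest recovery mean, and nothing is read from that order. Opposite shifts were seen at PDE_09399, which had 2051, 1202 and 2365 FPKM in the deletion libraries, 1838, 2086 and 1660.0 FPKM in the recovery libraries and 1300.0, 2009 and 1355 FPKM in the wild-type libraries. Without both replicates 2 its deletion libraries lay above its wild-type libraries without overlap, and the ratio of strain means was 1.66 instead of 1.20.

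**Figure D4:**
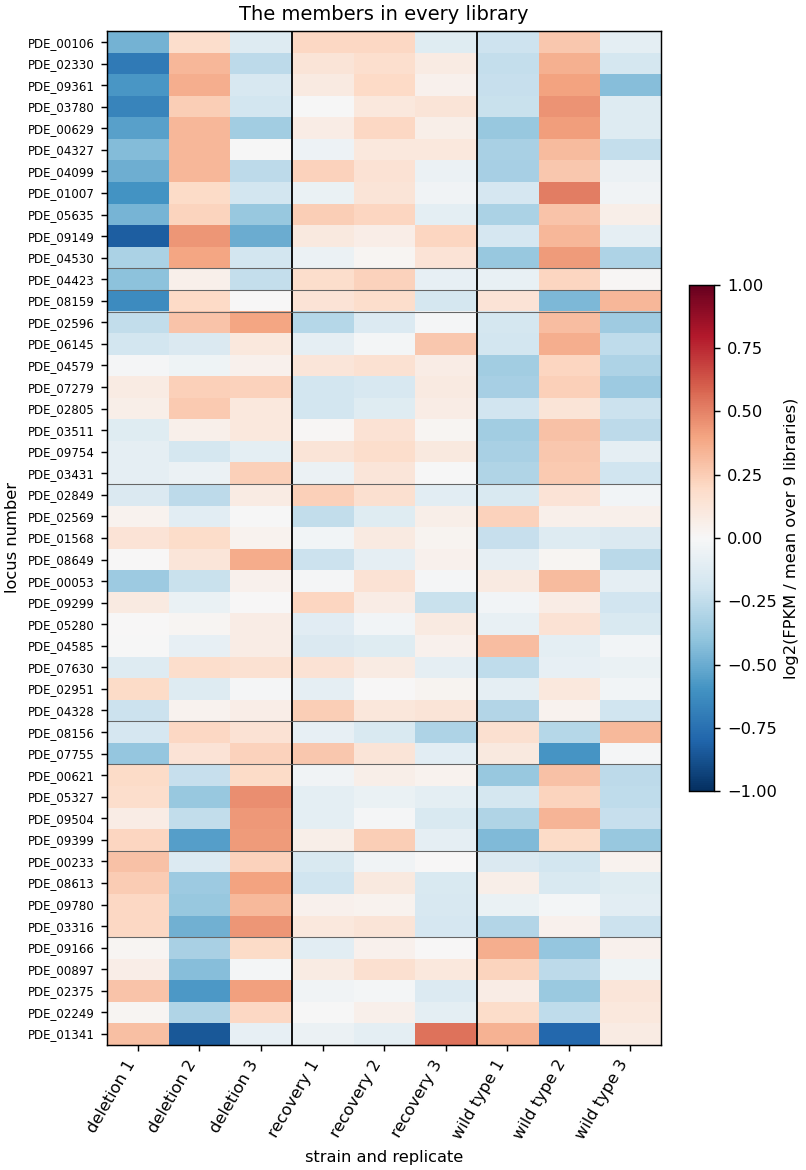
The 47 members (rows) in the 9 libraries (columns, by strain and replicate), coloured by log2 of FPKM over the mean of the 9 libraries of that member. Rows are ordered, and divided by lines, by whether deletion replicate 2 and then wild-type replicate 2 was higher than the mean of the other libraries of its strain by at least 25%, within 25% of it, or lower (that mean at least 25% above it), and the top block holds the 11 members where both were higher.

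Leaving out both replicates 2 changed which genes met the rule. It chose 21 rows, of which 17 were among the 47 members (36.2% of the 47 and 81.0% of the 21), and 30 members exceeded the limit on strain means. The median ratio of strain means over the 47 was 1.30 without both libraries and 1.17 with all. The largest was 1.72, at PDE_09149, and 3 members were over 1.5. The choice held ratios with all libraries at or under the limit. It therefore favours higher ratios and lost members once libraries are left out, and how much of the rise it made was not tested. Among the 30 members lost, the deletion strain was the highest of the 3 at 12, the lowest at 11 and between the others at 7. The number of rows chosen also moved when 1 library was left out, to 109 without deletion replicate 1, 71 without deletion replicate 3 and 29 without wild-type replicate 2, with 40, 45 and 26 of the members among them.

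**Figure D5:**
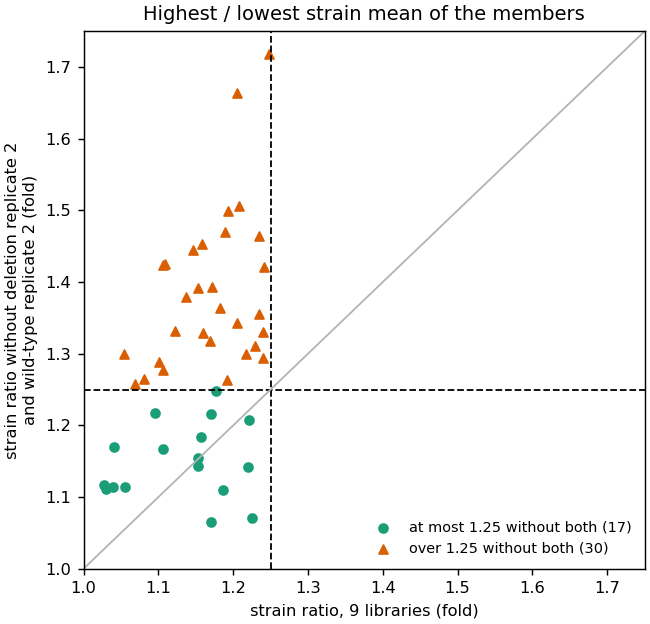
Highest over lowest strain mean of the 47 members with all 9 libraries (x axis) and without deletion replicate 2 and wild-type replicate 2 (y axis). Dashed lines mark the limit, 25% above equality, and the grey line equality, and 30 members (triangles) lie above the limit on the y axis.

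Whichever single library was left out, 11 members still met the rule, and 10 of them also did so without both replicates 2. These 10 were PDE_09166, PDE_06145, PDE_02849, PDE_02569, PDE_09299, PDE_05280, PDE_04585, PDE_07630, PDE_02951 and PDE_02249, chosen after their values were seen. Their means ran from 546 to 5925 FPKM, their strain ratios from 1.03 to 1.16 with all libraries and from 1.11 to 1.22 without both replicates 2, and their 9 libraries spanned 1.23-fold to 1.68-fold. PDE_02249 had the lowest strain ratio of the 47, 1.03, from 553, 443 and 631 FPKM in the deletion libraries, 545, 567 and 509 FPKM in the recovery libraries and 620.4, 458 and 586 FPKM in the wild-type libraries. Replicate 2 was the lowest of its strain in both the deletion strain and the wild type, so strain means agreed more closely than libraries did. PDE_02951, with a strain ratio of 1.03, spread less, with 685, 547 and 593 FPKM in the deletion libraries, 564, 599 and 609.7 FPKM in the recovery libraries and 563, 644 and 588 FPKM in the wild-type libraries. All 9 values lay between 547 and 685 FPKM. The eleventh, PDE_03431, was at 1.26 without both replicates 2 and had 510.2, 522 and 641 FPKM in the deletion libraries, 524, 592 and 543 FPKM in the recovery libraries and 442, 651 and 473 FPKM in the wild-type libraries among all libraries. Its wild-type replicate 2 was its highest library.

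Likeness between strains was also read in libraries that had not chosen the genes. The rule was applied to 6 libraries, with 1 replicate number left out of every strain. The ratio of the highest to the lowest of the 3 libraries left out was then taken. Single libraries vary more than strain means, so shares within 25% are read only beside the other abundant rows. With replicate 1 left out, 120 rows were chosen and 9 of them (7.50%) were within 25% in the libraries left out, against 3.19% of the other abundant rows in that round. With replicate 2 left out, 22 rows were chosen and 9 (40.9%) were within, against 39.2%. With replicate 3 left out, 71 were chosen and 14 (19.7%) were within, against 6.25%. The median ratio in the libraries left out was 1.72, 1.32 and 1.52 for chosen rows and 2.17, 1.38 and 1.71 for the others. Summed over the rounds the shares were 15.0% of 213 chosen and 18.8% of 695 others, an order opposite to that in each round, since the round with replicate 2 left out added 22 chosen rows and 283 others. The libraries of replicate number 2 were closer to each other across strains than those of numbers 1 and 3. Of the 251 other abundant rows, 38.6% were within 25% over the 3 libraries numbered 2, 1.20% over those numbered 1 and 3.19% over those numbered 3. For the members, whose strain means had been chosen as close, the counts were 12, 21 and 20 of 47 for numbers 1, 2 and 3.

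Near the limit, the members just inside were PDE_09149 (ratio 1.248), PDE_07279 (1.241) and PDE_04328 (1.240). PDE_07279 had 1672, 1863 and 1847 FPKM in the deletion libraries, 1389.7, 1413 and 1677 FPKM in the recovery libraries and 1252, 1861 and 1225 FPKM in the wild-type libraries. Wild-type replicate 2 lay among the deletion libraries, and the other wild-type replicates lay below every deletion and recovery library. PDE_04328 had 511, 608 and 620.0 FPKM in the deletion libraries, 704, 643 and 647 FPKM in the recovery libraries and 484, 608 and 516 FPKM in the wild-type libraries. Its recovery libraries all lay above its deletion and wild-type libraries. The rows just outside were PDE_02693 (1.251), PDE_06215 (1.255) and PDE_02379 (1.259). PDE_02693 had 1109.7, 2226 and 1443 FPKM in the deletion libraries, 2007, 2091 and 1882 FPKM in the recovery libraries and 1561, 2421 and 1758 FPKM in the wild-type libraries. At PDE_06215 there were 399, 1149.7 and 534 FPKM in the deletion libraries, 799.9, 845 and 969 FPKM in the recovery libraries and 751, 988 and 734 FPKM in the wild-type libraries. PDE_02379 had 501, 1184 and 605 FPKM in the deletion libraries, 900.0, 925 and 1009 FPKM in the recovery libraries and 811, 1187 and 884 FPKM in the wild-type libraries. In these 3 rows, as in the 11 members above, replicate 2 was the highest library of both the deletion strain and the wild type. At the floor of level, PDE_03431 (544 FPKM) and PDE_01341 (506 FPKM) were the members nearest above 500 FPKM, and PDE_01907 (493 FPKM) and PDE_08490 (492 FPKM) the rows with strain means within 25% nearest below it. PDE_01907 had 523, 506 and 546 FPKM in the deletion libraries, 404, 464 and 491 FPKM in the recovery libraries and 551, 507 and 447 FPKM in the wild-type libraries. PDE_08490 had 507, 544 and 479 FPKM in the deletion libraries, 463, 487 and 573 FPKM in the recovery libraries and 459, 497 and 418 FPKM in the wild-type libraries. At PDE_01907 the deletion libraries all lay above the recovery libraries, and at PDE_08490 the 3 strains overlapped.

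A fit across all rows gave the precision behind the strain means. In limma, no member was called between the deletion strain and the wild type (0 of 47, with 26.1% of all 9099 rows called at a Benjamini-Hochberg adjusted p under 0.05). None was called between the deletion and recovery strains (0 of 47, with 31.5% of all rows called) or between the recovery strain and the wild type (0 of 47, with 1.57% called). The rule used these contrasts, so nothing is read from the counts, and at an unadjusted p under 0.05 the counts were also 0, 0 and 0. Adjusted p in limma was never below 0.166 for a member, the value of PDE_01568 between the deletion strain and the wild type (log2 change 0.29 ± 0.14, SE). The standard error of a log2 change had a median of 0.211 over the members, from 0.140 to 0.369, against 0.259 for other abundant rows and 0.205 for all rows. A 95% interval from that fit reached a median of 1.39-fold to either side, from 1.246-fold at its narrowest to 1.785-fold. Intervals of 0 members lay wholly within 25% either way in each of the 3 comparisons. Those of 18, 17 and 23 members lay within 1.5-fold, and those of 47, 45 and 46 within 2-fold, for deletion against wild type, deletion against recovery and recovery against wild type. These counts are a description as well, since the rule held the centres of the intervals close to 0.

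Without both replicates 2 the fit called far more rows, and some members with them. For deletion against wild type 9 members were called (19.1%, with 54.5% of 9025 rows called), 8 higher and 1 lower. PDE_09399 (log2 change 0.73, limma adjusted p = 0.00247) and PDE_03316 (0.58, limma adjusted p = 0.00722) were the highest, and PDE_09149 was lower (-0.53, limma adjusted p = 0.00956). For deletion against recovery 13 members were called (27.7%, with 60.4% of rows), 3 higher and 10 lower. The largest were those of PDE_09149 (-0.79, limma adjusted p = 0.000467) and PDE_02330 (-0.61, limma adjusted p = 0.00494). For recovery against wild type 7 members were called (14.9%, with 28.2% of rows), 6 higher and 1 lower, with PDE_09399 at 0.48 (limma adjusted p = 0.0277). Among other abundant rows 75.7%, 89.6% and 40.6% were called in the 3 comparisons. These libraries were left out after their values were seen, and the median standard error over all rows fell with them to 0.149, 0.136 and 0.136.

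Along the locus numbers the members were scattered between PDE_00053 and PDE_09780. The median step from one member to the next was 120 locus numbers and the largest 1134. Only PDE_04327 and PDE_04328 had consecutive numbers, and 3 further pairs (PDE_00621 and PDE_00629, PDE_04579 and PDE_04585, PDE_08156 and PDE_08159) lay at most 10 numbers apart. The consecutive members differed in level, and PDE_04327 had 961, 1639.7 and 1296 FPKM in the deletion libraries, 1252, 1397 and 1401 FPKM in the recovery libraries and 1035, 1614 and 1099.9 FPKM in the wild-type libraries. PDE_04327 was highest in replicate 2 of the deletion strain and of the wild type, by 1.45-fold and 1.51-fold over the other replicates, whereas PDE_04328 moved by 1.08-fold and 1.22-fold. PDE_08156 and PDE_08159 were both lower in wild-type replicate 2, at 0.693 and 0.621 times the mean of the other wild-type libraries. PDE_08159 had 496, 880.3 and 769 FPKM in the deletion libraries, 839, 863 and 676 FPKM in the recovery libraries and 839, 559.8 and 964 FPKM in the wild-type libraries. At PDE_08159 deletion replicate 1 was the lowest of the 9 libraries.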

How the data were processed

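Transcript levels of 3 strains with 3 libraries each were taken from 1 table of 9860 rows, whose columns were matched to samples by name. The values deposited by the authors are FPKM, per the file headers, rounded to 2 decimals. Per the labels' protocols, cDNA was cut with NlaIII and MmeI into short tags, of which a transcript gives 1 site whatever its length, so levels of different genes may not compare as molecules. Aligner, counting tool and genome build: not given in the sources used here. The members and lists were chosen with earlier results of these data known.

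Strain means are arithmetic means of FPKM. Spread is the SD of log2(FPKM + 1), with a pseudocount of 1. The linear model of limma 3.58.1 (R 4.3.3) used log2(FPKM + 1) of all 9 libraries, with 1 mean per strain, no covariates and trend and robust moderation, over the 9099 rows with at least 1 FPKM in at least 3 libraries. Tests were two-sided and Benjamini-Hochberg adjusted over all rows of a comparison. The fit and the rule were tested on simulated data. Shares, ratios and plots used Python 3.11.15, numpy 2.4.6, pandas 2.3.3 and matplotlib 3.10.9.

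Locus numbers named with values in every library are the 5 members of highest mean, the 3 of lowest strain ratio, the 3 on each side of the limit, the 3 of lowest and of highest pooled SD, and those nearest 500 FPKM. All other locus numbers, of which PDE_02330, PDE_03780, PDE_00629, PDE_09399, PDE_04327 and PDE_08159 also have values in every library, were chosen after their values were seen. Dropped were 6 windows of locus numbers and 5 single ones. No gene group could be formed, as no locus was named. The alternatives were other pseudocounts, filters, scalings, limits and fits, and leaving out each library.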

Additional observations from a re-analysis of the deposited data

How the results depend on the processing

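With 47 rows chosen by the rule as stated, a limit of 15% on strain means gave 17 and one of 50% gave 177, a mean of at least 250 FPKM gave 118 and one of at least 1000 FPKM gave 30, all by construction. With each library left out in turn the rule chose 29 to 109 rows, and leaving out both replicates 2 gave 21. Rescaling to TPM chose 65 rows with 40 of the members among them, median centring 60 with 43, quantile normalization 43 with 38, a total without the most abundant row 44 with 38, geometric strain means 43 with 42 and strain medians 32 with 28. Without the most abundant row in the total the members' share was 8.19% for recovery and 7.89% for wild type. Leaving out 1 library gave median SDs of 0.157 to 0.305 in the deletion strain, 0.0600 to 0.113 in the recovery strain and, for the wild type, 0.0757 to 0.341. With a limit of 1.5 in the libraries left out, 40.4% of rows chosen without them and 38.3% of the others were within it.

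Members called numbered 0 under every pseudocount, filter, scaling and fit to 2 strains tried. They numbered 0 to 1 for deletion against wild type and for deletion against recovery when 1 library was left out: PDE_09149 in both comparisons without deletion replicate 2, and PDE_07279 against the wild type without wild-type replicate 2. Without both replicates 2 they numbered 9, 13 and 7. The cause was not tested. Of 9 same-numbered pairs of libraries, 3 had deviations from strain means correlated over 0.1 (-0.106 to 0.222). Of the 9 libraries, 6 correlated best with libraries of their own number. Numbers were not taken to pair samples. Such correlations do not measure closeness across strains, so they leave the likeness of the libraries numbered 2 undescribed. With the replicate number as a block 0 members were called in each comparison. Which strain was higher turned with some scalings. Of 47 members, 20 had higher and 27 lower values in deletion than in recovery libraries as deposited. The counts were 26 and 21 after rescaling to TPM and 25 and 22 after median centring. They were 14 and 33 after quantile normalization and also with a total without the most abundant row. Deletion against wild type had 25 and 22 as deposited and turned only with that total, to 22 and 25. Recovery was above wild type at 24 to 35 members in every scaling. As deposited, the median log2 difference, recovery minus wild type, was 0.0810 over members and 0.0888 over all rows tested. Over all rows tested it was positive in every scaling, from 0.0174 after median centring to 0.101 without the most abundant row. It was higher for members only after quantile normalization, at 0.115 against 0.0414. The rule used strain means, so these counts are a description. Limits set by read depth, which is unknown, were not estimated.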
